A study of Sus scrofa with 6 samples.

Results

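The genes described here are the perilipins and the enzymes and cofactors that break down the fat of lipid droplets: PLIN1 to PLIN5, PNPLA2, ABHD5, LIPE, MGLL and CIDEC. They were chosen by gene symbol, and PLIN1 by its Ensembl identifier because its row in the table carries no symbol. Of these 10 genes, 9 were measured among 25322 genes, and PLIN2 was not analysed here. RNA was sequenced from pig longissimus dorsi, the skeletal muscle that runs along the spine, in 3 libraries of the Wei breed and 3 of the Yorkshire breed. The Wei pigs had free access to commercial feed and water up to slaughter at 90 kg, and Yorkshire animals had comparable husbandry, with no slaughter weight stated. The labels give no treatment, genotype beyond the breed, sex or age. Whether the 3 libraries of a breed come from different pigs is not stated. Y-linked genes had 6901 counts in Wei replicate 2 and 9 and 14 in Wei replicates 1 and 3. Wei replicate 2 is thus not a technical repeat of the other Wei libraries. For the remaining libraries this is open, and every p-value below reflects library-to-library spread that may in part be technical. In bulk muscle, fewer cells of a type and less RNA per cell cannot be told apart.

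A lipid droplet is a store of triglyceride enclosed by a single layer of phospholipid, and perilipins are the proteins that coat it and govern access of lipases. Triglyceride is broken down in steps: PNPLA2 (adipose triglyceride lipase) removes the first fatty acid, ABHD5 activates PNPLA2, LIPE (hormone-sensitive lipase) cleaves the diacylglycerol that results, and MGLL cleaves the monoacylglycerol. In muscle, small droplets lie inside the fibres, often beside mitochondria, while adipocytes between the fibres form the marbling fat. PLIN1 and CIDEC are known mainly as coat proteins of adipocyte droplets, PLIN4 and PLIN5 are abundant in muscle as well, and PLIN3 is found in most tissues.

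Total gene counts ranged from 15285197 to 27096747 per library. All 13 skeletal muscle fibre markers in the table had counts in every library, and their summed level was 98890 to 169900 CPM (counts scaled to library size with TMM factors) in Wei and 143100 to 165800 CPM in Yorkshire. Y-linked genes gave 6901 counts in Wei replicate 2, against no more than 14 in each remaining library. By these counts Wei replicate 2 is the only library from a male, so the sexes are mixed in Wei alone. The macrophage markers summed to 183 CPM in Yorkshire replicate 3 and to at most 58.2 CPM in any other library. The breeds were compared with edgeR (quasi-likelihood test), and 671 of the 13209 tested genes (5.08%) had an adjusted p (Benjamini-Hochberg) under 0.05. They were 361 genes higher in Wei (2.73%) and 310 lower (2.35%).

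PLIN4 was the 1 gene of the 9 that passed the test between the breeds, and it was higher in Wei muscle. PNPLA2 was also above all Yorkshire libraries in all 3 Wei libraries, at a smaller distance that missed the adjusted threshold. PLIN5, LIPE and MGLL had higher means in Wei, and PLIN3 and CIDEC lower ones, none past the test. PLIN1 and ABHD5 had nearly equal means in the 2 breeds. The 9 genes all passed the filter on low counts, and their median log2 fold change (Wei over Yorkshire) was 0.19, against -0.02 for all tested genes. For 2 of the 9 the CPM ranges of the breeds were apart, and over all tested genes this held for 29.6%. The share called, 1 of 9, rests on a single gene and is no result about the set.

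**Figure D1:**
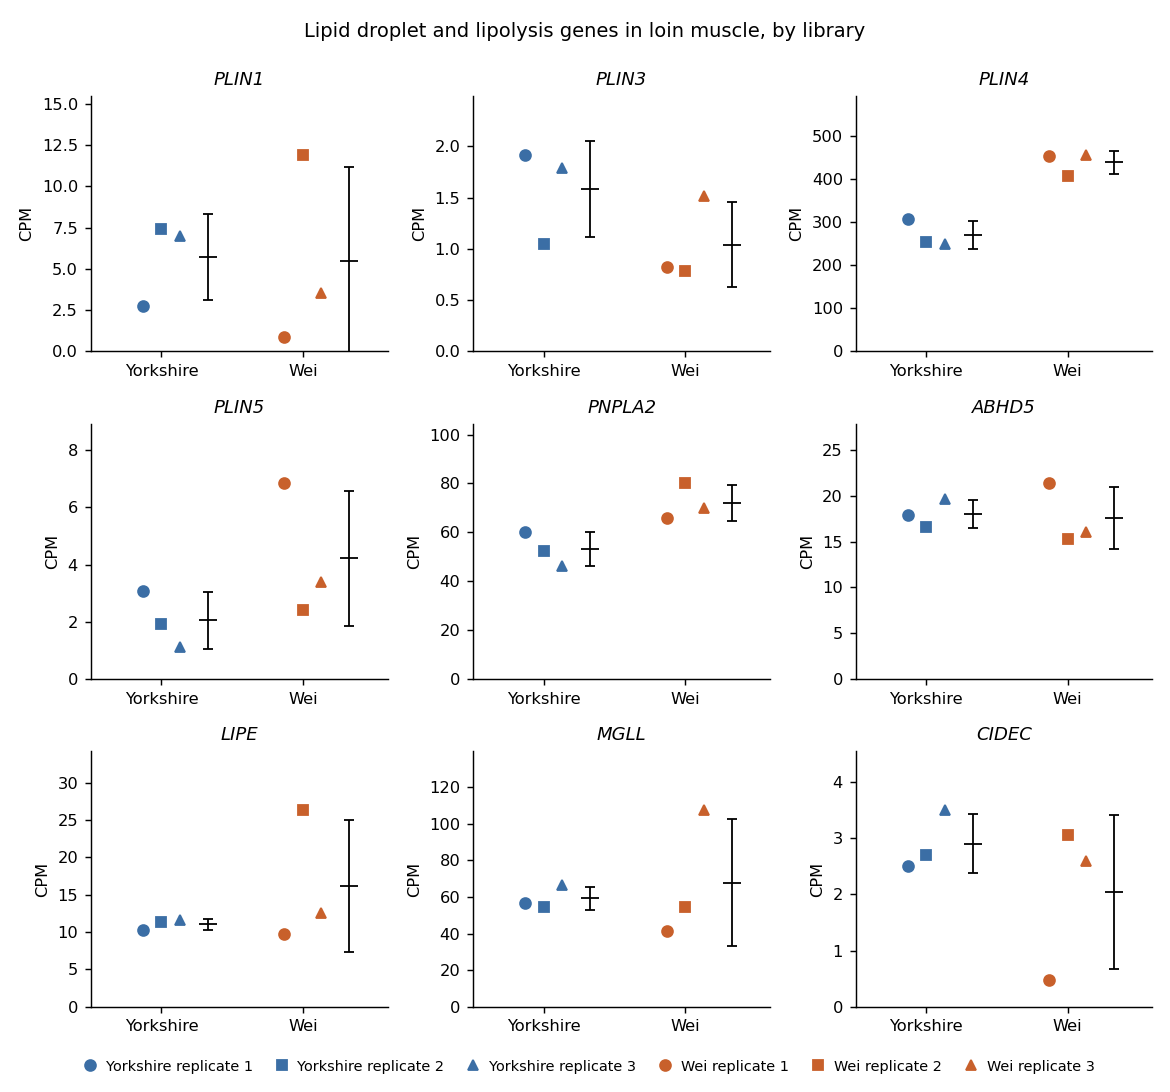
Level of each of the 9 genes in every library, in CPM after TMM scaling on a linear axis from 0; symbols mark the replicate, and the black bar is the mean ± SD of 3 libraries (the PLIN1 bar in Wei is clipped at 0). PLIN4 and PNPLA2 do not overlap between the breeds, while PLIN1, LIPE, MGLL, CIDEC and PLIN5 each have 1 Wei library far from the other Wei libraries.

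Among the droplet coat genes, PLIN4 (ENSSSCG00000013512) lies on chromosome 2 from 74810874 to 74822994 in Sscrofa10.2. It encodes a perilipin with a long run of amphipathic repeats that binds newly formed droplets. PLIN4 stood at 453, 408 and 456 CPM in Wei replicates 1 to 3 and at 308, 254 and 250 CPM in Yorkshire replicates 1 to 3. The lowest Wei library was thus above the highest Yorkshire library, and neither breed held a library far from the rest. Means were 438.9 ± 27.1 CPM in Wei and 270.7 ± 32.6 CPM in Yorkshire (SD, n = 3 each). This is a log2 fold change (Wei over Yorkshire) of 0.70 ± 0.14 (SE), which is 1.62-fold with a 95% interval of 1.31 to 2.01-fold, and the adjusted p from edgeR was 0.0336.

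The size of the PLIN4 difference held in every fit that left out 1 library, at log2 fold changes of 0.65 to 0.80. Its call did not: edgeR's adjusted p was 0.123 without Yorkshire replicate 2, 0.102 without Yorkshire replicate 3, 0.0735 without Wei replicate 1 and 0.0798 without Wei replicate 3. Without both Wei replicate 2 and Yorkshire replicate 3, the libraries with the Y chromosome and macrophage counts given above, the log2 fold change was 0.70 with an adjusted p of 0.125. The threshold is passed with the 6 libraries and with Yorkshire replicate 1 or Wei replicate 2 left out (0.0450 and 0.0491). Every fit that left out 1 library also called fewer genes over all tested genes. They ranged from 60 without Yorkshire replicate 2 to 394 without Wei replicate 2, against 671 with the 6 libraries.

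PLIN5 (ENSSSCG00000013513, chromosome 2, 74797981 to 74806557) is the neighbour of PLIN4 on the chromosome and encodes the coat protein that tethers droplets to mitochondria in oxidative muscle. It was far less abundant, with 6.86, 2.41 and 3.38 CPM in Wei replicates 1 to 3 and 3.09, 1.94 and 1.13 CPM in Yorkshire replicates 1 to 3. These rest on 31 to 116 counts per library. Wei replicate 1 was highest and Wei replicate 2 lay between Yorkshire replicates 1 and 2, so the breeds overlapped. Its log2 fold change was 1.04 ± 0.47, with a 95% interval of -0.03 to 2.11 and an edgeR adjusted p of 0.224. Without Wei replicate 1 it was 0.51. The estimate was larger than that of PLIN4, and its interval covers both no difference and a difference of 4.32-fold.

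PLIN3 (ENSSSCG00000029581), the perilipin that moves between cytosol and nascent droplets, is placed on the scaffold GL892621.1 from 2358 to 25204. It rests on few counts, 12 to 31 in Wei and 19 to 49 in Yorkshire. Levels were 0.83, 0.78 and 1.52 CPM in Wei replicates 1 to 3 and 1.92, 1.05 and 1.79 CPM in Yorkshire replicates 1 to 3. Wei replicate 3 was above Yorkshire replicate 2, so the breeds overlapped. For PLIN3 the log2 fold change was -0.60 ± 0.38 (95% interval -1.47 to 0.28, edgeR adjusted p = 0.382).

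PLIN1 (ENSSSCG00000001844, chromosome 7, 60126614 to 60139897), the coat protein that holds ABHD5 away from PNPLA2 in resting adipocytes, varied more between libraries than between breeds. It stood at 0.89, 11.9 and 3.57 CPM in Wei replicates 1 to 3 and at 2.74, 7.41 and 6.995 CPM in Yorkshire replicates 1 to 3. The lowest and the highest of the 6 libraries were both Wei libraries, 13.4-fold apart. Their counts were 15 (95% Poisson interval 8.4 to 24.7) and 183 (157.4 to 211.5), so counting error is much smaller than this gap. The log2 fold change was -0.08 ± 0.74 (edgeR adjusted p = 0.964), and its 95% interval runs from 0.296-fold to 3.04-fold. The value was -1.32 without Wei replicate 2 and 0.43 without Wei replicate 1, so its sign depends on single libraries.

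CIDEC (ENSSSCG00000011557, chromosome 13, 73216901 to 73223512) encodes the protein that fuses droplets into the large single droplet of the adipocyte. It stood at 0.47, 3.06 and 2.59 CPM in Wei replicates 1 to 3 and at 2.50, 2.71 and 3.50 CPM in Yorkshire replicates 1 to 3. Wei replicate 1, with 8 counts (95% Poisson interval 3.5 to 15.8), was below all others, and the remaining 5 libraries lay close together. For CIDEC the log2 fold change was -0.51 ± 0.52 (edgeR adjusted p = 0.591), and -0.04 without Wei replicate 1.

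The adipocyte markers listed for comparison, with no gene of the set among them, were 14 genes in the table, 8 of them above the count filter. Their summed level was 723.4 to 1056 CPM in Wei and 908.1 to 1034 CPM in Yorkshire. Most of it came from GPD1, which muscle fibres also express, at 880.1 ± 179.4 CPM in Wei and 909 ± 58.4 CPM in Yorkshire. The mean log2 CPM of the 8 tested markers was 1.12, 2.07 and 1.73 in Wei replicates 1 to 3 and 2.15, 2.28 and 2.65 in Yorkshire replicates 1 to 3. Wei replicate 1, lowest in PLIN1 and CIDEC, was lowest here too, and the Wei values were all below the Yorkshire values. The highest library in PLIN1 and LIPE, Wei replicate 2, was thus below every Yorkshire library here. Mean log2 CPM of the skeletal muscle fibre markers was also lowest in Wei replicate 1, at 11.04. It was 11.38 and 11.72 in Wei replicates 2 and 3. Of the other adipocyte markers, RETN had no count in any library and LEP had at most 2, while CFD (adipsin) had 751 to 1869 counts, PPARG 12 to 77, SLC7A10 19 to 60 and CIDEA 15 to 52. None of the 8 tested adipocyte markers passed edgeR's test (0 by the adjusted threshold, 2 at an unadjusted p under 0.05), and all 8 had a negative log2 fold change, with a median of -0.62. These ran from -2.58 for THRSP to values near 0 for GPD1 (-0.05) and CIDEA (-0.01). Fibroblast markers summed to 570.2 to 1579 CPM in Wei and 2060 to 3395 CPM in Yorkshire, with Wei replicate 1 the lowest. All 9 had a negative log2 fold change (median -0.73), and 1 of them, DPT, passed the test. The 6 tested lymphocyte markers were also all negative (median -1.53), with none called by edgeR and 5 at an unadjusted p under 0.05. Yorkshire replicate 3 stood apart here, with a lymphocyte marker sum of 47.8 CPM. The sum was 11.6 and 14.1 CPM in Yorkshire replicates 1 and 2, and 8.27 to 9.10 CPM in Wei. Of the 11 tested macrophage markers 1 had a positive log2 fold change, the median was -0.64, and none was called by edgeR. The part of adipocyte, fibroblast, lymphocyte or macrophage RNA in the PLIN1, CIDEC and LIPE values was not tested.

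Among the lipolytic genes, PNPLA2 (ENSSSCG00000012841, chromosome 2, 156291 to 161297), the lipase of the opening step, stood at 65.9, 80.3 and 70.1 CPM in Wei replicates 1 to 3. The Yorkshire replicates 1 to 3 were at 60.3, 52.5 and 46.5 CPM. Every Wei library was above every Yorkshire library, but the gap between Wei replicate 1 and Yorkshire replicate 1 was small. The log2 fold change was 0.44 ± 0.14, which is 1.36-fold with a 95% interval of 1.08 to 1.703-fold. The unadjusted p was 0.0139 and the Benjamini-Hochberg adjusted p from edgeR was 0.110, so the difference is not counted as a change. Adjusted p stayed between 0.0819 (DESeq2) and 0.421 (edgeR without Wei replicate 2 and Yorkshire replicate 3) in the alternatives tried.

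ABHD5 (ENSSSCG00000011297, chromosome 13, 29833568 to 29883671), the activator of PNPLA2, was at 21.4, 15.3 and 16.1 CPM in Wei replicates 1 to 3 and at 17.9, 16.5 and 19.6 CPM in Yorkshire replicates 1 to 3. The Wei libraries were at both ends of the range and the Yorkshire libraries in between. Its log2 fold change was -0.04 ± 0.17, with an edgeR adjusted p of 0.918. The 95% interval, 0.748-fold to 1.27-fold, is among the narrowest of the set and excludes a difference of 1.5-fold in either direction.

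LIPE (ENSSSCG00000003018, chromosome 6, 45444859 to 45454620), the lipase switched on by protein kinase A in adipocytes, stood at 9.76, 26.3 and 12.6 CPM in Wei replicates 1 to 3. The Yorkshire libraries were closely grouped at 10.24, 11.3 and 11.6 CPM. Wei replicate 2, which was also the highest library for PLIN1 and PNPLA2, was far above the other 5, and Wei replicate 1 was the lowest. The log2 fold change was 0.55 ± 0.33 (edgeR adjusted p = 0.353), and it was 0.03 without Wei replicate 2. That library is the one with the Y-linked counts, and the part of sex in the LIPE values was not tested.

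MGLL (ENSSSCG00000024134, chromosome 13, 79998364 to 80086913), which completes the release of fatty acids and also degrades the endocannabinoid 2-arachidonoylglycerol, was at 41.6, 54.4 and 107 CPM in Wei replicates 1 to 3. The Yorkshire replicates 1 to 3 were at 56.6, 54.6 and 66.6 CPM. Wei replicate 3 was above all others, and the remaining Wei libraries were below every Yorkshire library. The log2 fold change was 0.19 ± 0.31 (edgeR adjusted p = 0.747), and -0.30 without Wei replicate 3.

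**Figure D2:**
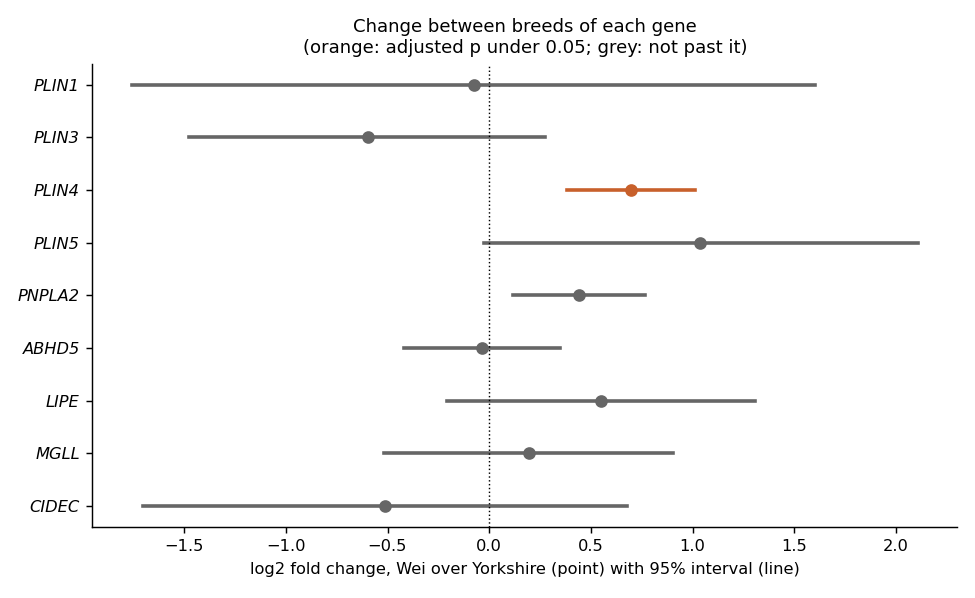
Log2 fold change of each gene, Wei over Yorkshire (points), with its 95% interval from edgeR's quasi-likelihood fit (lines); orange marks an adjusted p under 0.05 and the dotted line no difference. The intervals of PLIN4 and PNPLA2 lie above 0, the interval of PLIN4 from 0.38 to 1.01, and those of PLIN1 and CIDEC are the widest on the negative side.

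The genes fell into steady and variable ones. The biological coefficient of variation, edgeR's estimate of the spread between libraries of a group beyond counting error, was 14.9% for PLIN4, 15.3% for PNPLA2 and 16.8% for ABHD5, against a median of 19.6% over all tested genes. It was 62.3% for PLIN1, higher than that of 99.4% of tested genes, 43.8% for CIDEC and 39.1% for PLIN5. MGLL at 27.8%, LIPE at 29.2% and PLIN3 at 29.7% were in between. Wei replicate 1 was the lowest library for 4 of the 9 genes (PLIN1, LIPE, MGLL and CIDEC) and the highest for PLIN5 and ABHD5. Wei replicate 2 was the highest for PLIN1, PNPLA2 and LIPE. Within the Wei libraries the highest and the lowest value of PLIN4 were 1.12-fold apart, and those of MGLL 2.58-fold.

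Levels of different genes were compared in the deposited FPKM, which divides counts by gene length and library size. PLIN4 led the set with 90.4 to 114 FPKM in Wei and 58.6 to 66.3 FPKM in Yorkshire, and its mean was above that of 95.01% of tested genes. PNPLA2 followed at 28.9 to 35.7 and 22.7 to 26.0 FPKM, and MGLL at 13.4 to 28.2 and 15.5 to 20.7 FPKM. The order PLIN4, PNPLA2, MGLL held in all 6 libraries, though the ranges of PNPLA2 and MGLL overlapped across libraries. A gap separated MGLL from the next gene, ABHD5, at 3.68 to 5.99 FPKM in Wei and 4.23 to 5.31 FPKM in Yorkshire.

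The remaining genes were at low levels and their order was not steady. LIPE had 3.45 to 8.18 FPKM in Wei and 3.09 to 3.95 in Yorkshire, and PLIN1 0.62 to 7.33 and 1.64 to 4.74. ABHD5 was above LIPE in 5 of 6 libraries and LIPE above PLIN1 in 4 of 6. CIDEC, at a mean of 1.89 ± 0.83 FPKM (SD over 6 libraries), PLIN5 at 1.68 ± 1.20 and PLIN3 at 0.92 ± 0.34 did not differ from their neighbours in the order by more than their spread. CIDEC was above PLIN5 in 5 of 6 libraries, and PLIN5 above PLIN3 in 5 of 6.

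**Figure D3:**
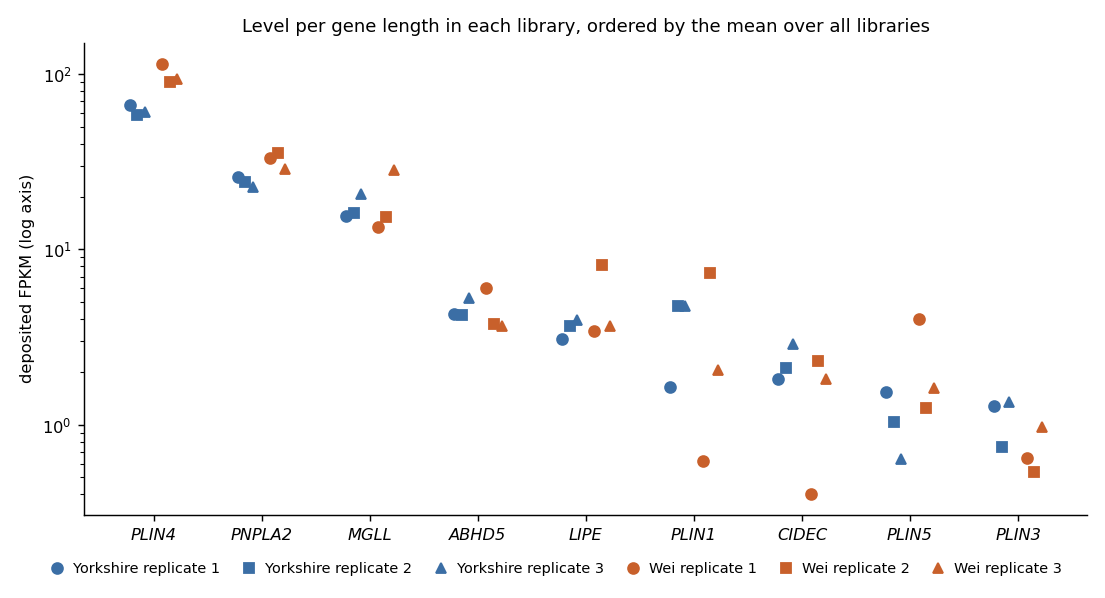
Deposited FPKM of each gene in every library on a log axis, with genes ordered by their mean over the 6 libraries and symbols as replicates of each breed. PLIN4, PNPLA2 and MGLL stand above the other 6 genes in every library, and PLIN1 and CIDEC spread the most downward, in Wei replicate 1.

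Of the summed FPKM of the 4 perilipins measured, PLIN4 made up 90.8% to 95.6% in the Wei libraries and 90.0% to 93.7% in the Yorkshire libraries. PLIN1 made up 0.52% to 7.37% in Wei and 2.31% to 7.29% in Yorkshire, and PLIN5 1.25% to 3.37% and 0.95% to 2.18%. PLIN3 stood at 0.54% to 0.98% in Wei and 1.15% to 1.996% in Yorkshire, the 1 share of the 4 with no overlap between the breeds. A share falls when PLIN4 rises, so this is no separate evidence on PLIN3. PLIN2 is outside these shares. Of the summed FPKM of the 3 lipases, PNPLA2 made up 47.6% to 66.4% in Wei and 47.9% to 58.3% in Yorkshire, MGLL 26.0% to 46.4% and 34.8% to 43.7%, and LIPE 5.98% to 13.8% and 6.93% to 8.36%.

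Ratios between genes within a library do not depend on how libraries are scaled, and 5 were compared between the breeds with a two-sided exact permutation test, for which 3 against 3 cannot go below p = 0.1. The log2 ratio of ABHD5 to PNPLA2, activator to lipase, was -1.62, -2.40 and -2.13 in Wei replicates 1 to 3 and -1.75, -1.67 and -1.24 in Yorkshire replicates 1 to 3. Wei replicate 1 lay among the Yorkshire libraries, and the mean difference, Wei minus Yorkshire, was -0.49 (exact p = 0.3, adjusted over the 5 ratios 0.833). The difference in the log2 ratio to PNPLA2 was -0.02 for LIPE (exact p = 1), -0.37 for MGLL (exact p = 0.5) and 0.57 for PLIN5 (exact p = 0.5). For CIDEC to PLIN1, the pair of adipocyte coat genes, it was -0.25 (exact p = 0.8). In each of the 5 the breeds overlapped, and adjusted exact p was at least 0.833.

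Genes with a pattern over the 6 libraries like that of PLIN4 were sought among 8864 genes with a symbol and an average log2 CPM of at least 1. DCTN4, a dynactin subunit, had a Pearson r of 0.999 with PLIN4, and WIZ, a zinc finger protein, had 0.998 (log2 CPM, n = 6 libraries, a description with no test). An r of at least 0.95 was found for 183 of these genes. The log2 fold changes of DCTN4 (0.34 ± 0.11) and WIZ (0.40 ± 0.12) missed the threshold (edgeR adjusted p = 0.121 and 0.0898).

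Other genes of the pathway came from 3 lists of lipid droplet proteins and lipases, of the hormonal control of lipolysis, and of lipid handling genes under the PPAR receptors, which also drive several perilipins. The last list also holds the receptors PPARA, PPARD and PPARG, the coactivator PPARGC1A and TXNIP. Together the 3 lists held 83 distinct tested genes, of which 8 were higher and 3 lower in Wei, beside 2.73% higher and 2.35% lower over all tested genes. In the lipid droplet list 1 of 31 tested genes passed, beside 5.08% of all tested genes, and it was lower. HACD1 is a dehydratase of very long chain fatty acid synthesis in the endoplasmic reticulum of muscle rather than a droplet protein. It stood at 8.11, 14.2 and 10.8 CPM in Wei replicates 1 to 3 and at 32.0, 44.2 and 31.5 CPM in Yorkshire, with a log2 fold change of -1.703 ± 0.23 (edgeR adjusted p = 0.0115, and 0.0511 without Yorkshire replicate 2). The list's median log2 fold change was 0.01, with 16 of 31 positive.

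The hormonal control list had 32 tested genes, 2 of them called higher and 2 called lower (2.73% and 2.35% of all tested genes), with a median log2 fold change of -0.04 and 16 of 32 positive. PDE4D, a phosphodiesterase that breaks down cyclic AMP, the messenger that switches on lipolysis, stood at 196.3 ± 55.7 CPM in Wei and 83.6 ± 15.4 CPM in Yorkshire. Its log2 fold change was 1.23 ± 0.22 (edgeR adjusted p = 0.0257), and it missed the threshold without any 1 of the Yorkshire replicates and with the replicate block (0.0519). Of 6 adenylate cyclases tested, which make cyclic AMP, 1 was higher, 2 were lower and 3 did not pass. The last were ADCY4, ADCY5 and ADCY6, with log2 fold changes of -0.23, 0.14 and -0.16. ADCY9 was higher in Wei at 0.84 ± 0.19, and ADCY3 (-1.50 ± 0.30) and ADCY7 (-1.46 ± 0.34) were lower (edgeR adjusted p = 0.0451, 0.0352 and 0.0492). Each of these calls was lost in 5 of the 6 fits that left out 1 library. ADCY9 also missed the threshold with scaling by library size alone (edgeR adjusted p = 0.0553). ADCY3 missed it with the replicate number as a block in edgeR (0.0578), and ADCY7 in limma voom (0.0741). Without both Wei replicate 2 and Yorkshire replicate 3, edgeR's adjusted p was 0.125 for ADCY9, 0.143 for ADCY7 and 0.0487 for ADCY3. ADCY7 is known from blood cells, and its highest library was Yorkshire replicate 3 (7.21 CPM), the library with the most macrophage marker RNA. The part of leukocytes in this value was not tested. With 1 library left out the list had 0 to 2 calls, with 0 when Yorkshire replicate 2 was the one dropped and 2 when Yorkshire replicate 1 or Wei replicate 2 was.

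Of the PPAR list, 21 genes were tested and 6 passed, all in the direction of Wei, with a median log2 fold change of 0.74 and 16 of 21 positive. Over all tested genes 2.73% were higher. The list was written with earlier results on these data known, so it is not independent evidence of direction. TXNIP, an arrestin-like protein that lowers glucose uptake, stood at 1471 ± 308.2 CPM in Wei and 347.6 ± 86.4 CPM in Yorkshire (log2 fold change 2.08 ± 0.24, edgeR adjusted p = 0.00783). Whichever library was dropped, it stayed past the threshold, as did UCP3, a mitochondrial carrier (3.79 ± 0.22). ACSL1, which activates fatty acids released from droplets, and CPT1B, which admits them to mitochondria, were at 1.55 ± 0.24 and 1.47 ± 0.30 (edgeR adjusted p = 0.0176 and 0.0363). ACSL1 missed the threshold without Yorkshire replicate 2 or 3, and CPT1B without any 1 library other than Wei replicate 2. Dropping 1 library left the list with 3, 2 and 2 calls (Yorkshire replicates 1, 2 and 3 in turn) or 3, 8 and 3 calls (Wei replicates 1, 2 and 3 in turn).

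**Figure D4:**
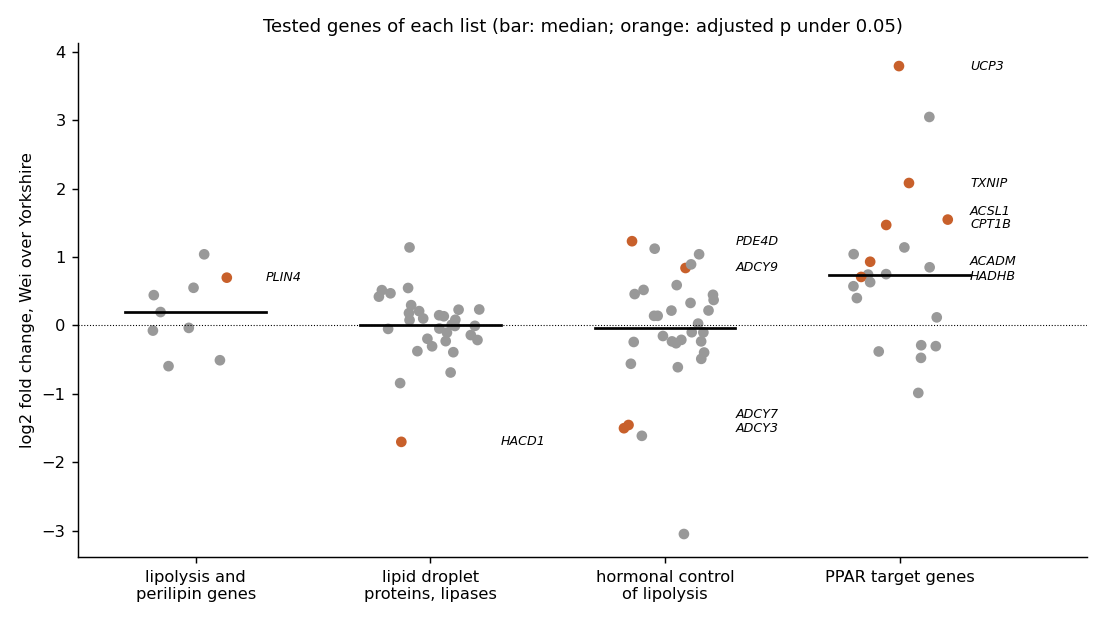
Log2 fold change, Wei over Yorkshire, of each tested gene in the set of 9 and in the 3 pathway lists; points are genes, spread sideways for legibility, the bar is the list median, and named orange points passed an adjusted p of 0.05. The medians of the lipid droplet and hormonal lists sit near 0 and that of the PPAR list at 0.74, with PLIN4 the 1 called gene of the set.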

How the data were processed

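Per the file headers, the table that the authors deposited holds, for 25322 Ensembl genes, raw counts and FPKM for each of the 6 libraries. CASAVA 1.7, TopHat2 2.0.9, edgeR and the build Sscrofa10.2 are listed in the submitters' processing notes without saying which step each served. How reads were assigned to genes, by which annotation and with which strand setting, is not given in the sources used here. Coordinates are those of the table. No row of the table overlapped a gene of the set. The deposited FPKM served only for levels between genes: for the 4854 genes above 200 counts in each library, it equalled the count divided by a constant gene length and the library total.

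A quasi-likelihood model with breed as its single term was fitted to the counts in edgeR 4.0.16 (R 4.3.3) after filterByExpr (at least 10 counts) and TMM scaling. P-values were adjusted by Benjamini-Hochberg over all 13209 tested genes, with 0.05 as the threshold. Each SE was obtained by dividing the unshrunken log2 fold change by the root of its F statistic, and intervals are at 95%. The procedure was run on simulated counts that gave every gene the same spread, so it was not checked at the differing spreads of single genes. Libraries were compared pairwise for duplicates, and chi-square divided by its degrees of freedom was 26.3 or more for every pair. Poisson intervals cover counting error only.

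Of genes with no symbol in the table, 1774 received one through their Ensembl ID. The members, lists and tests were chosen with earlier results of these data known. Named were the 9 genes, up to 4 called genes of each list by adjusted p, and the 3 genes most like PLIN4, of which 1 is not reported here; marker genes were named where they bear on the adipocyte check, and ADCY4, ADCY5 and ADCY6 after their values were seen. Alternatives were RLE scaling, library size alone, no filter, a 1 CPM filter, DESeq2 1.42.0, limma 3.58.1 voom, a replicate block, leaving out mitochondrial genes and ACTA1, and leaving out each library. Leaving out Wei replicate 2 with Yorkshire replicate 3 was added after seeing the data. Figures were drawn with matplotlib 3.10.9.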

Additional observations from a re-analysis of the deposited data

How the results depend on the processing

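PLIN4 remained the 1 called gene of the set under RLE scaling, library size alone, no count filter, a 1 CPM filter, DESeq2, limma voom, the fit without mitochondrial genes and ACTA1, and without Yorkshire replicate 1 or Wei replicate 2. Leaving out 1 library gave 0 to 1 calls in the set, 60 to 394 over all genes and 2 to 11 of the 83 pathway genes, against 1, 671 and 11 with all. Leaving out both Wei replicate 2 and Yorkshire replicate 3 gave 0, 146 and 5, with fewer samples in each fit. DESeq2 called 1291 genes, 713 higher and 578 lower in Wei, and 20 pathway genes; the cause was not tested. The replicate block gave 477 genes, 10 pathway genes and an adjusted p of 0.0487 for PLIN4. Replicate numbers were not treated as pairs, because the deviations of libraries with numbers 1, 2 and 3 had correlations of 0.137, -0.0066 and 0.022 over genes. Values that changed sign were all short of the threshold. With 1 library left out, log2 fold changes ran from -1.32 to 0.43 for PLIN1, -0.20 to 0.06 for ABHD5 (0.13 without both libraries) and -0.30 to 0.46 for MGLL, and the differences in log2 ratio from -0.36 to 0.21 for LIPE to PNPLA2 and -0.57 to 0.18 for CIDEC to PLIN1. Of the planned comparisons, 4 ratios with PLIN2 and the search for promoter motifs were not run. Counts of 8 to 192 per library limit PLIN1, PLIN3, PLIN5 and CIDEC.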

Other observations

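A few further genes of the lipolytic pathway, named after their values were seen, had uneven values between libraries. G0S2, the protein inhibitor of PNPLA2, had 58, 23 and 65 counts in Wei replicates 1 to 3 and 130, 9 and 6 counts in Yorkshire replicates 1 to 3. The lowest and the highest of its 6 libraries were Yorkshire libraries, and its log2 fold change was 0.47 ± 0.92 (edgeR adjusted p = 0.798). NPR3, the clearance receptor for natriuretic peptides, which stimulate lipolysis, had 11, 3 and 5 counts in Wei and 158, 44 and 14 in Yorkshire, with a log2 fold change of -3.05 ± 0.90 (edgeR adjusted p = 0.0881). Neither passed the threshold. ADRB3, the adrenergic receptor of rodent fat, had no count in any library.

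PPARG and THRSP, genes of adipocyte identity and lipogenesis, had low counts that leaned the opposite way to PLIN4. They were the 2 of the 8 tested adipocyte markers with an unadjusted edgeR p under 0.05. The rest of the 8 had log2 fold changes from -0.71 (CEBPA) to -0.01 (CIDEA). PPARG stood at 0.71, 1.82 and 1.22 CPM in Wei replicates 1 to 3 and 1.76, 2.88 and 2.81 CPM in Yorkshire (log2 fold change -0.99 ± 0.38, edgeR adjusted p = 0.166). For PPARG the breeds overlapped, with Wei replicate 2 above Yorkshire replicate 1. THRSP had 0, 10 and 3 counts in Wei and 23, 18 and 73 in Yorkshire (log2 fold change -2.58 ± 0.86, edgeR adjusted p = 0.114). Neither passed the threshold.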
